A study of Ovis aries with 41 samples.

Results

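Mid-tail skin was compared with tail base skin in 3 Improved Jezersko-Solčava rams that carry 2 copies of the derived allele of HOXB13 (D/D). RNA-seq libraries of these rams were chosen by the genotype and tail position in their labels, which gave 11 libraries, 5 of mid-tail and 6 of base skin, out of 41 libraries of 7 rams. Rams 11 and 13 had 2 libraries at each position and ram 12 had 1 at the mid-tail and 2 at the base. The libraries of each ram and position were summed, which gave 6 of the 21 ram sums of the series, and each ram's mid-tail was set against its own base. The other skin samples came from the tail tip of the same rams and from the base, mid-tail and tip of 4 rams with 2 copies of the ancestral allele (A/A).

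The derived allele differs from the ancestral one by an insertion in the promoter of HOXB13, and it is linked with longer tails. All rams were adult animals of 1 breed taken at slaughter, and skin was punched out next to the first caudal vertebra (base), at the midpoint of the measured tail length (mid-tail) and close to the distal end (tip). The distance between base and mid-tail therefore grew with the tail, and in comparisons with A/A rams genotype and distance cannot be told apart. Whether the 2 libraries of a ram and position came from separate punches is not given in the sources used here, so the ram was the replicate.

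HOX genes encode transcription factors that give cells their position along the body axis. They lie in 4 clusters, in which genes with higher paralog numbers are switched on later and more posteriorly in the embryo, and the genes of paralog group 13 mark the hindmost part of the body. Adult fibroblasts of the skin are known in humans to keep a HOX pattern that reflects where on the body they come from. Skin is a mixture of epidermis, wool follicles with their glands, dermal fibroblasts and matrix, vessels, nerves, pigment cells and immune cells. In such bulk tissue, fewer cells of a type and less RNA per cell cannot be told apart.

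The 6 ram sums held 17132063 to 33605930 reads counted in genes at the mid-tail and 24189287 to 32516393 at the base. Expression was measured as normalised read counts (CPM, the count of a gene relative to the depth of its library after TMM scaling), which are not divided by gene length. Over these 6 sums KRT5, a keratin of basal keratinocytes, lay at 4800 to 7740 CPM, COL1A1, a chain of type I collagen, at 3094 to 7860 CPM, and KRT25, a keratin of the inner root sheath of the wool follicle, at 4616 to 6321 CPM, so the defining markers of skin were present in every ram. Skeletal muscle genes were low, with ACTA1 at 7.95 to 11.99 CPM and CKM at 0.369 to 0.804 CPM. Single libraries of the same ram and position correlated at 0.973 to 0.984 (Pearson's r of log2 CPM, 5 pairs), mid-tail and base libraries of the same ram at 0.960 to 0.984 (10 pairs) and those of different rams at 0.945 to 0.975 (20 pairs), given as a description. The 2 base libraries of ram 13 were the most unlike pair of the same ram and position, with a chi-square per degree of freedom of 37.4, against 15.1 to 29.3 in the other 4 pairs, and results that rest on the first of them are also given without it.

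At the mid-tail of D/D rams the posterior HOX gene HOXA13, the joint lubricant gene PRG4 and the limb transcription factor TBX3 stood above the base in every ram, and the matrix genes MATN4 and TNXB stood below it. Of 19029 genes tested, edgeR's quasi-likelihood test called 0 (0%), where a call needed an adjusted p no larger than 0.01 together with a log2 fold change beyond 1 in either direction, and 0 had an adjusted p under 0.05. The smallest adjusted p in edgeR was 0.146, shared by HOXA13 and an unnamed locus. At an unadjusted p under 0.05, 552 genes (2.9%) were higher and 737 (3.87%) were lower at the mid-tail, 1289 in all, against 951 that a p-value spread evenly between 0 and 1 would give. DESeq2 on the same ram sums placed 16 genes higher (0.0841%) and 25 lower (0.131%) at an adjusted p under 0.05, of which 8 also passed the stricter call, and limma-voom placed 0.

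The 8 genes called by DESeq2 were HOXA13, PRG4, HOXC10 and STMN2, which were higher at the mid-tail, and MATN4, SIM2 and 2 unnamed loci, which were lower. The main test used 1 estimate of the spread for all 21 ram sums. The common coefficient of biological variation was 0.1495 in the 6 D/D sums of base and mid-tail and 0.264 in the 8 A/A sums of the same positions. With the 6 D/D sums alone edgeR called 63 genes, 22 higher and 41 lower, and all 8 DESeq2 calls were among them. With the 9 D/D sums that include the tip, whose coefficient was 0.1572, edgeR called 0 genes and 25 had an adjusted p under 0.05. With the second base library of ram 13 alone the main test again called 0 genes, DESeq2 called 21 and the 6 D/D sums gave 57. Because 0 genes passed the main test, the values below are given with the number of rams that share the direction, and "higher" and "lower" describe values, not calls.

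HOXA13 (chromosome 4, 70422486 to 70435575, ARS-UI_Ramb_v3.0), the group 13 gene of the HOXA cluster, had 4.41, 4.15 and 4.56 CPM in mid-tail skin of rams 11, 12 and 13, against 0.328, 1.30 and 0.864 CPM in their base skin. The mid-tail values were close to one another and all lay above the base values, and the 5 single mid-tail libraries (3.87 to 4.94 CPM) lay above the 6 base libraries (0.165 to 1.76 CPM). The log2 fold change was 2.42 ± 0.39 (SE), with an adjusted p of 0.146 in edgeR and of 6.3e-06 in DESeq2. At the tip HOXA13 had 4.26, 3.41 and 7.77 CPM, and the log2 fold change of tip over mid-tail was 0.18 ± 0.35, so the difference from the base was already present at the mid-tail. For comparison of such counts, every mid-tail sum lay above every base sum in 1422 of all genes tested (7.47%) and below in 1484 (7.8%).

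HOXB13 (chromosome 11, 37525009 to 37530787), the gene that carries the alleles and that is known to restrain the growth of the tail in mice, was barely detected at either position. Its reads numbered 2, 1 and 5 at the mid-tail of rams 11, 12 and 13, against 0, 1 and 0 at the base, or 8 against 1 in all. The ratio of mid-tail to base at equal depth was 9.74, with an exact 95% interval of 1.31 to 432 that covers counting error only. Tip skin of the same rams had 1.06, 0.254 and 0.477 CPM. The sum of the mid-tail reads was too small to order the 3 rams, and the edgeR adjusted p for mid-tail over base was 0.752.

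HOXC10 (chromosome 3, 132524743 to 132529862), a posterior gene of the HOXC cluster that is active in the hindlimb region, had 11.2, 12.5 and 11.7 CPM at the mid-tail, against 4.96, 5.29 and 5.55 CPM at the base. These were among the tightest groups of the comparison, and the single libraries did not overlap (10.9 to 12.4 CPM against 4.55 to 5.70 CPM). The log2 fold change was 1.16 ± 0.22, with adjusted p = 0.305 in edgeR and 0.00178 in DESeq2. HOXA11, which with HOXA13 patterns the limb along its length, had 2.99, 3.17 and 3.53 CPM at the mid-tail, against 1.39, 1.67 and 2.19 CPM at the base (log2 fold change 0.89 ± 0.38, adjusted p = 0.703 in edgeR). HOXC13, known for its part in hair keratin expression, had 155, 212 and 182 CPM at the mid-tail, against 111, 196 and 195 CPM at the base, with overlapping groups and a log2 fold change of 0.16 ± 0.27 that turned to -0.0052 without ram 11.

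Of the 34 HOX genes tested, 17 had a higher mean at the mid-tail in the fit, and 6 reached an unadjusted p under 0.05, 3 higher (HOXA13, HOXC10 and HOXA11) and 3 lower, HOXC5 and HOXC6 among them. The 3 tested group 13 genes all had positive log2 fold changes. In groups 9 to 12, 6 of 11 genes were positive with a median of 0.34, which fell to -0.07 without ram 11. In groups 1 to 8, 8 of 20 were positive with a median of -0.06. Of all 19029 genes, 49% were positive and the median was -0.0082.

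Among the anterior genes, HOXC6 had 13.1, 17.6 and 11.2 CPM at the mid-tail, against 20.2, 17.8 and 21.5 CPM at the base, lower in 3 of 3 rams by a small margin in ram 12. HOXC5 had 9.35, 9.68 and 7.72 CPM at the mid-tail, against 17.6, 8.79 and 16.3 CPM at the base, where ram 12 ran the other way. By cluster, 7 of 11 HOXA genes, 6 of 9 HOXB genes and 4 of 8 HOXC genes were positive. All 6 HOXD genes were negative, with log2 fold changes of -0.85 to -0.26 and a median of -0.43, and 0 of them reached an unadjusted p under 0.05 in edgeR. In A/A rams 3 of these 6 were positive with a median of 0.05.

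**Figure D1:**
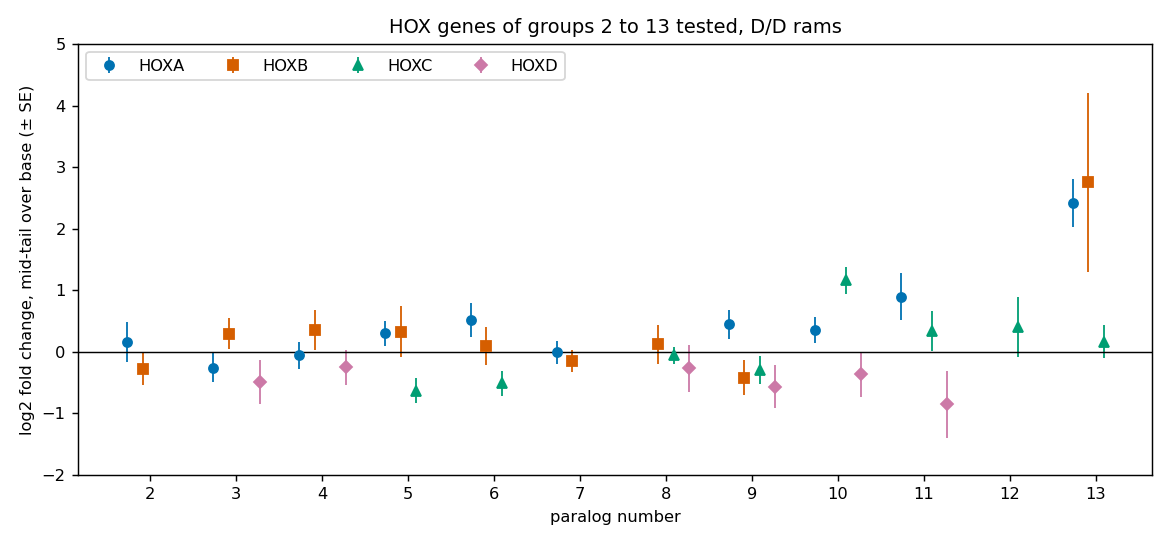
edgeR log2 fold change of mid-tail over base in D/D rams (vertical axis, bars are ± 1 SE) for the tested HOX genes of groups 2 to 13 by paralog number (horizontal axis), with 1 symbol and colour per cluster. HOXA13 (2.42) and HOXB13 (2.75, from 9 reads) lie highest, HOXC10 follows at 1.16, and the 6 HOXD genes all lie below 0.

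Transcription factors of limb and appendage development were examined as a list of 40, of which 36 were tested. Of these, 15 were positive and the median log2 fold change was -0.12, with 3 higher and 3 lower at an unadjusted p under 0.05. TBX3 (chromosome 17, 60162178 to 60176145), a T-box factor of limbs and mammary glands, had 21.6, 17.7 and 16.7 CPM at the mid-tail, against 10.5, 9.90 and 8.67 CPM at the base. All values of TBX3 at the mid-tail lay above those at the base, in the sums and in the single libraries, and the log2 fold change was 0.94 ± 0.19 (adjusted p = 0.305 in edgeR, 0.00988 in DESeq2). TBX18, a T-box factor of the dermal papilla, had 11.1, 7.49 and 5.08 CPM at the mid-tail, against 4.88, 4.30 and 3.95 CPM at the base.

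LMX1B, the factor that sets the dorsal side of the limb, had 3.65, 2.82 and 2.68 CPM at the mid-tail, against 6.93, 4.89 and 8.20 CPM at the base. Mid-tail values were below the base in all single libraries, with a log2 fold change of -1.10 ± 0.32 (adjusted p = 0.497 in edgeR). IRX1, an Iroquois homeobox factor, had 20.5, 25.8 and 20.8 CPM at the mid-tail, against 35.4, 24.2 and 37.4 CPM at the base, and was not lower in ram 12. SP8, a zinc finger factor of limb and tail outgrowth, had 3 reads at the mid-tail, all in ram 11, against 0 at the base, too few for a ratio.

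Signalling genes differed little. In the Wnt list 22 of 35 genes were positive with a median of 0.09, in the BMP and TGF-beta list 10 of 25 with a median of -0.08, and in the FGF list 8 of 19 with a median of -0.04. DKK3, a secreted protein of the Dickkopf family, had 52.3, 66.8 and 48.9 CPM at the mid-tail, against 39.4, 36.3 and 34.8 CPM at the base. In the Hedgehog list, a pathway that drives follicle growth, 2 of 12 genes were positive with a median of -0.22. Its transcriptional readout GLI1 had 12.9, 13.2 and 11.3 CPM at the mid-tail, against 17.3, 16.5 and 26.8 CPM at the base (adjusted p = 0.703 in edgeR). The sums of GLI1 did not overlap, but its single libraries did.

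Genes of matrix, tendon and joint gave some of the largest differences. PRG4 (chromosome 12, 66828456 to 66844717), which encodes lubricin, a lubricating proteoglycan of joints and tendon surfaces, had 62.4, 39.3 and 53.7 CPM at the mid-tail, against 4.84, 15.3 and 6.41 CPM at the base. Mid-tail and base did not overlap in sums or in single libraries, and the log2 fold change was 2.54 ± 0.50 (adjusted p = 0.305 in edgeR, 0.0059 in DESeq2). COMP, a cartilage matrix protein also found in tendon and dermis, had 17.8, 5.01 and 9.03 CPM at the mid-tail, against 2.17, 1.70 and 4.32 CPM at the base, without overlap of the sums but with overlap of single libraries. TNMD, a membrane protein of tendons, had 2.75, 6.74 and 3.53 CPM at the mid-tail, against 1.31, 1.42 and 2.09 CPM at the base. Of 19 tested genes of the tendon, cartilage and bone list 14 were positive, with a median of 0.29. In 6 of them every mid-tail sum was above every base sum, against 7.47% of all genes tested.

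MATN4 (chromosome 13, 73535613 to 73550691), a matrilin that links collagen networks, had 1.66, 1.67 and 0.973 CPM at the mid-tail, against 6.03, 4.58 and 5.38 CPM at the base. Its log2 fold change was -1.93 ± 0.37 (adjusted p = 0.305 in edgeR, 0.00111 in DESeq2), and the sums of the 3 rams lay close together. Its single libraries overlapped, at 0.726 to 2.30 CPM against 1.74 to 7.26 CPM, and the 2 base libraries of ram 13 had 1.74 and 7.26 CPM. TNXB, which encodes tenascin-X, a glycoprotein that organises dermal collagen, had 61.4, 54.0 and 45.2 CPM at the mid-tail, against 230, 143 and 143 CPM at the base. The sums of TNXB did not overlap, but single libraries did, at 25.9 to 83.7 CPM against 48.7 to 336 CPM. The list of matrix glycoproteins and proteoglycans as a whole held 20 of 37 positive genes, with 5 higher and 5 lower at an unadjusted p under 0.05 and a median of 0.03.

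Most collagens were close to the base. Of 32 tested collagen genes 11 were positive, 3 were higher at an unadjusted p under 0.05 and 0 lower. COL11A1, a minor fibrillar collagen of cartilage, had 27.1, 34.5 and 19.9 CPM at the mid-tail, against 7.83, 14.02 and 14.2 CPM at the base. The summed CPM of the collagens went opposite ways in different rams, with 15526, 13098 and 8748 CPM at the mid-tail of rams 11, 12 and 13, against 10670, 17638 and 17238 CPM at the base. Among enzymes of the matrix, LOXL4 and LOXL3, lysyl oxidase-like enzymes that cross-link collagen and elastin, were lower at the mid-tail in 3 of 3 rams. LOXL3 had 10.9, 12.2 and 10.3 CPM at the mid-tail, against 20.8, 19.8 and 23.3 CPM at the base, and LOXL4 had 2.28, 4.32 and 1.76 CPM at the mid-tail, against 7.91, 8.57 and 6.31 CPM at the base. Of 28 metalloproteases and inhibitors 18 were negative. In 8 of them every mid-tail sum lay below every base sum, against 7.8% of all genes tested. ADAM28 was among these, with 1.99, 2.07 and 1.31 CPM at the mid-tail, against 3.69, 4.39 and 3.29 CPM at the base, but its single libraries overlapped.

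Lipid genes split by function. Of 22 fatty acid synthesis genes 16 were positive, 12 were higher in 3 of 3 rams and 5 were higher at an unadjusted p under 0.05, with a median of 0.26 in the fit. Over all genes, 18.8% were higher in 3 of 3 rams and 18.7% lower. ELOVL4, which lengthens very long-chain fatty acids, had 310, 168 and 241 CPM at the mid-tail, against 231, 69.9 and 86.6 CPM at the base. ELOVL7, another elongase, had 372, 184 and 260 CPM at the mid-tail, against 241, 118 and 105 CPM at the base. Both were higher in every ram but overlapped between positions, since ram 11 was high at both. GPAM, which makes the first step of triglyceride synthesis, had 82.9, 74.9 and 86.5 CPM at the mid-tail, against 62.1, 61.4 and 63.6 CPM at the base, a small difference (log2 fold change 0.39 ± 0.16) without overlap even among single libraries.

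The acyl-CoA medium-chain synthetases, mitochondrial enzymes that activate medium-chain fatty acids, ran the other way, with 4 of 4 tested genes negative in 3 of 3 rams and a median of -1.11. ACSM1 had 37.3, 11.3 and 44.1 CPM at the mid-tail, against 69.3, 21.3 and 140 CPM at the base (log2 fold change -1.16 ± 0.26, adjusted p = 0.361 in edgeR and 0.0137 in DESeq2). ACSM5 had 4.27, 4.90 and 3.44 CPM at the mid-tail, against 6.64, 9.25 and 10.1 CPM at the base. ACSM2B had 0.190, 0.173 and 0.578 CPM at the mid-tail, against 0.533, 1.55 and 15.1 CPM at the base, so the size of its log2 fold change of -3.75 was set mainly by ram 13. These genes resemble one another, and reads of near-identical copies may be split or shared between them in the deposited counts. Of 15 lipoxygenase and prostanoid genes 12 were negative with a median of -0.30, and ALOX15, an arachidonate lipoxygenase, had 0.285, 1.04 and 1.16 CPM at the mid-tail, against 1.07, 7.33 and 1.06 CPM at the base, higher in ram 13 and lower in the other 2.

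HOXB13, SP8, ALOX15, LOXL4, AGT, HOXA13 and ACSM2B were the panel that the study measured by qPCR, chosen by its authors on these samples, so their directions are not independent evidence. Of the 7, 3 were positive and 4 negative, and 1 was higher and 3 were lower at an unadjusted p under 0.05. AGT, the precursor of angiotensin, had 0.237, 0.691 and 1.52 CPM at the mid-tail, against 1.23, 1.21 and 2.19 CPM at the base.

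**Figure D2:**
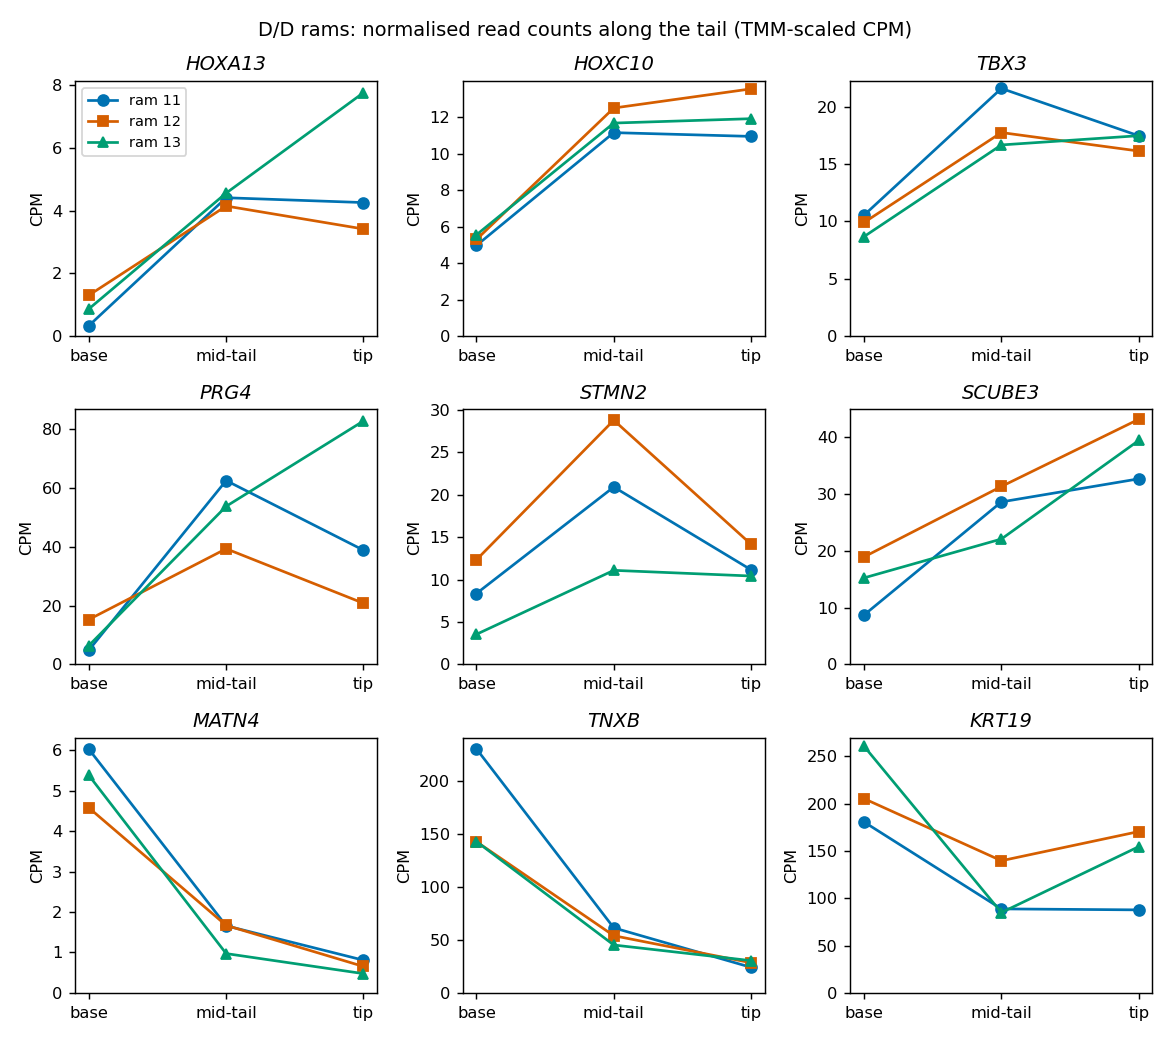
Normalised read counts in TMM-scaled CPM (vertical axes, from 0) along the tail (horizontal axes, base to tip) for 9 genes, with 1 line per D/D ram. HOXA13, HOXC10, TBX3, PRG4, STMN2 and SCUBE3 lie higher at the mid-tail than at the base in all 3 rams, and MATN4, TNXB and KRT19 lie lower.

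The epidermal lists leaned slightly to the mid-tail. Of 17 keratinocyte genes 13 were positive with a median of 0.16, and KRT2, a keratin of the upper epidermis, had 597, 61.7 and 262 CPM at the mid-tail, against 64.5, 20.1 and 79.5 CPM at the base. KRT2 was higher at the mid-tail of each ram, but ram 12 had less at its mid-tail than the other 2 rams had at their base, and the edgeR adjusted p was 0.659. Wool follicle genes had 12 of 17 positive with a median of 0.16, but the per-ram medians were 0.50, -0.09 and -0.10, so ram 11 stood apart. Among dermal papilla genes 9 of 17 were positive. SCUBE3, a secreted protein that dermal papilla cells use to induce hair growth in mice, had 28.6, 31.3 and 22.0 CPM at the mid-tail, against 8.69, 18.9 and 15.2 CPM at the base (log2 fold change 0.98 ± 0.22, adjusted p = 0.361 in edgeR and 0.0141 in DESeq2).

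Gland genes pointed in different directions. Sebaceous gland genes had 9 of 14 positive with a median of 0.41, which was 0.22 without ram 12, and the per-ram medians were 0.01, 0.52 and 0.29, so ram 11 showed little difference. SOAT1, which esterifies cholesterol for sebum, had 226, 96.7 and 180 CPM at the mid-tail, against 169, 58.2 and 92.3 CPM at the base. Of 11 sweat gland genes 4 were positive, and 4 were lower at an unadjusted p under 0.05. KRT19, a keratin of simple and glandular epithelium and of follicle stem cells, had 88.7, 140 and 84.9 CPM at the mid-tail, against 180, 205 and 260 CPM at the base, without overlap in sums or single libraries (log2 fold change -1.06 ± 0.27, adjusted p = 0.427 in edgeR and 0.0466 in DESeq2). KRT18, another keratin of glandular epithelium, had 10.9, 15.4 and 10.9 CPM at the mid-tail, against 23.3, 23.8 and 30.5 CPM at the base. The summed level of the 11 sweat gland markers was 584 to 669 CPM at the mid-tail, against 696 to 792 CPM at the base, but this sum contains KRT8, KRT18 and KRT19. The other 8 markers summed to 511, 406 and 420 CPM at the mid-tail of rams 11, 12 and 13, against 482, 374 and 369 CPM at the base, higher at the mid-tail in each ram, with 4 of 8 positive.

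Fibroblast markers had 5 of 20 positive with a median of -0.20. SCARA5, a ferritin receptor of adventitial fibroblasts, had 33.8, 36.0 and 36.1 CPM at the mid-tail, against 90.01, 61.6 and 56.8 CPM at the base. PI16, a marker of a universal fibroblast type in mice and humans, had 67.3, 89.6 and 89.995 CPM at the mid-tail, against 129, 171 and 125 CPM at the base. The single libraries of SCARA5 and of PI16 overlapped between positions. APOD, a lipocalin of dermal fibroblasts, went the other way with 491, 428 and 485 CPM at the mid-tail, against 242, 292 and 302 CPM at the base, and its single libraries did not overlap (log2 fold change 0.76 ± 0.20, adjusted p = 0.431 in edgeR).

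Pigment cell genes showed how 1 sample set a list. Of 11 melanocyte genes 9 were negative and 6 were lower at an unadjusted p under 0.05, with a median log2 fold change of -1.57, but the per-ram medians were -2.57, -0.09 and -0.20 in rams 11, 12 and 13. TYR, the rate-limiting enzyme of melanin synthesis, had 1, 2 and 0 reads at the mid-tail, against 210, 5 and 0 at the base. TYRP1, another melanin enzyme, had 7, 1 and 5 reads at the mid-tail, against 1875, 1 and 4 at the base. The summed level of the list was 84.5, 81.0 and 92.2 CPM at the mid-tail, against 274, 81.6 and 91.5 CPM at the base, and without ram 11 the median was -0.03. Most of the list difference thus lay in the base skin of ram 11.

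Nerve genes held both directions. STMN2, a tubulin-binding protein of growing neurons, had 20.9, 28.8 and 11.1 CPM at the mid-tail, against 8.37, 12.3 and 3.55 CPM at the base, higher in each ram although the rams overlapped (log2 fold change 1.37 ± 0.29, adjusted p = 0.314 in edgeR and 0.00825 in DESeq2). UCHL1, a ubiquitin hydrolase of neurons, had 4.13, 2.02 and 2.16 CPM at the mid-tail, against 1.64, 1.14 and 1.06 CPM at the base. MBP, a myelin protein of Schwann cells, had 4.74, 3.00 and 3.19 CPM at the mid-tail, against 8.28, 4.39 and 5.55 CPM at the base. Of the 20 nerve and Schwann cell genes 7 were positive, with 2 higher and 4 lower at an unadjusted p under 0.05.

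Vessel, muscle and immune genes gave few differences. Endothelial markers had 5 of 20 positive, and their summed level was 434 to 497 CPM at the mid-tail, against 532 to 582 CPM at the base. RGS5, a marker of pericytes, had 126, 159 and 156 CPM at the mid-tail, against 62.9, 97.5 and 65.2 CPM at the base. It was taken from the smooth muscle list, in which 5 of 14 genes were positive with a median of -0.14. CNN1 of the same list went the other way, with 76.6, 91.7 and 82.2 CPM at the mid-tail, against 155, 97.3 and 194 at the base. Skeletal muscle genes had 3 of 12 positive, with MYH2, a fast myosin, at 2, 2 and 1 reads at the mid-tail, against 8, 9 and 28 at the base, few reads at either position. Macrophage genes had 4 of 13 positive, lymphocyte genes 7 of 15 and chemokines 9 of 19. CCL26, an eotaxin that attracts eosinophils, had 3.32, 6.22 and 4.68 CPM at the mid-tail, against 13.4, 12.2 and 6.08 CPM at the base. Of 21 immediate early genes, which respond to handling within minutes, 6 were positive with a median of -0.17, and 0 reached an unadjusted p under 0.05 in edgeR. Not a single member of the 38 lists passed an adjusted p of 0.05 in edgeR.

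**Figure D3:**
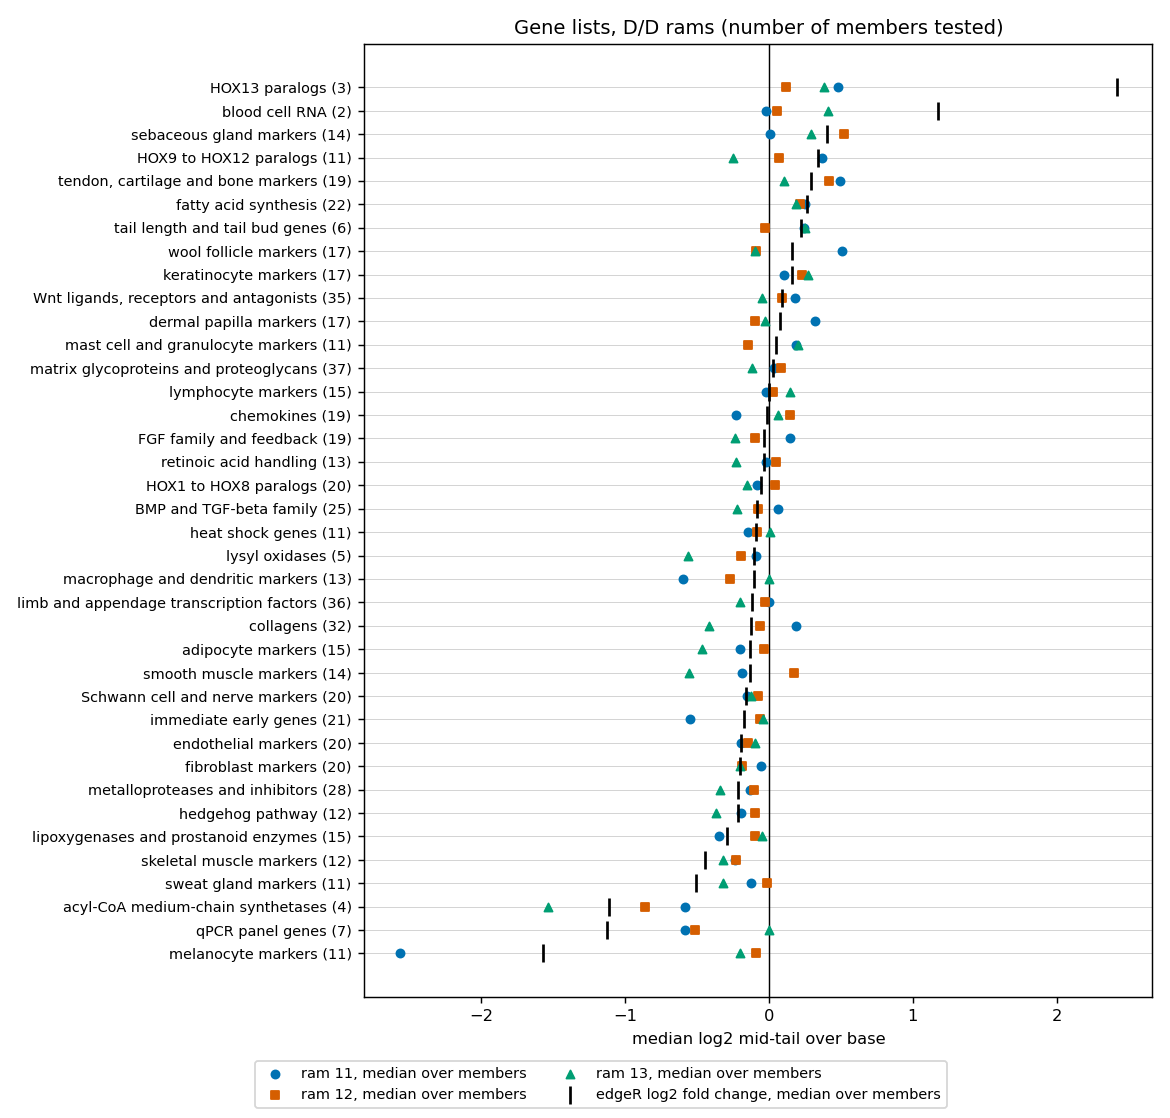
Median log2 mid-tail over base (horizontal axis) of the 38 gene lists in D/D rams, with the number of tested members in brackets. Points are medians of per-ram log2 ratios of CPM plus 0.5 and bars are medians of edgeR log2 fold changes, which lie apart where members have few reads, as for the HOX13 genes, and the melanocyte median is low in ram 11 (-2.57) but near 0 in rams 12 and 13.

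The genes with the largest log2 fold changes were taken among named genes with an unadjusted p under 0.01, a mean of at least 1 CPM over the 6 sums and 1 direction in 3 of 3 rams, which 82 genes met for higher and 102 for lower values. Beside PRG4, HOXA13 and COMP, the 12 highest were NTS, RBP2, SLC14A1, CORIN, FMO1, NPFFR2, CATHL3, MC4R and FHL5. These values were used to choose the genes and are a description. In 9 of the 12 every mid-tail sum lay above every base sum, against 7.47% of all genes tested. In 7 the single libraries did not overlap either, which held for 190 genes (0.998%) in this direction over all genes tested.

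NTS, the gut and nerve peptide neurotensin, had 3.04, 2.02 and 1.58 CPM at the mid-tail, against 0, 0.186 and 0.233 CPM at the base. MC4R, the melanocortin receptor of appetite control, had 6.17, 5.82 and 5.14 CPM at the mid-tail, against 0.656, 2.60 and 2.96 CPM at the base. FHL5, a LIM-domain coactivator, had 9.20, 12.4 and 15.4 CPM at the mid-tail, against 3.32, 5.75 and 3.52 CPM at the base. All 3 genes had mid-tail libraries that lay above every base library. SLC14A1, a urea transporter, had 5.22, 2.13 and 5.69 CPM at the mid-tail, against 0.738, 0.588 and 1.46 CPM at the base. CORIN, a protease that acts on natriuretic peptides and is made by the dermal papilla, had 2.42, 2.48 and 1.98 CPM at the mid-tail, against 0.328, 0.990 and 0.764 CPM at the base.

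FMO1, a flavin monooxygenase, had 1.95, 3.05 and 2.25 CPM at the mid-tail, against 0.902, 1.08 and 0.299 CPM at the base. RBP2, a cellular retinol-binding protein, had 4.32, 0.518 and 1.85 CPM at the mid-tail, against 0.328, 0.124 and 0.731 CPM at the base. NPFFR2, a neuropeptide receptor, had 1.80, 5.01 and 5.38 CPM at the mid-tail, against 0.410, 2.01 and 1.69 CPM at the base. The last 2 genes were higher within each ram, but differences between rams made the groups overlap. CATHL3, a cathelicidin antimicrobial peptide, had 11.2, 1.67 and 4.68 CPM at the mid-tail, against 6.93, 0.402 and 0.698 CPM at the base, and belongs to a family of similar genes whose reads may be split.

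The 12 lowest were, beside MATN4, TNXB and ACSM2B, MRGPRG, IL17RB, AOC1, GFPT2, NNMT, IL3RA, CD300LG, OMG and PROC. In 9 of the 12 every mid-tail sum lay below every base sum, against 7.8% of all genes tested. In 2 (CD300LG and OMG) the single libraries did not overlap, which held for 174 genes (0.914%) in this direction over all genes tested. The first base library of ram 13 was the lowest base library in 6 of these 12 genes, against 26.9% of all genes, with 0.289 CPM of AOC1, 8.49 of GFPT2 and 48.7 of TNXB, against 10.6, 33.1 and 192 CPM in the second. Without that library, chosen after its values were seen, 8 of the 12 did not overlap among single libraries, against 1.51% of all genes. The 24 highest and lowest genes kept their direction. All these genes were chosen on the same sums, which favours such counts over the shares of all genes, so the counts are a description. MRGPRG, an orphan receptor of the Mas-related family of sensory neurons, had 0 reads in the 3 mid-tail sums, against 27, 180 and 17 at the base. Most of the base reads thus came from ram 12. At equal depth the exact 95% interval, which covers counting error only, puts the mid-tail at least 49.5-fold lower. With an assumed floor of 3 reads over the group the ratio was 61.3-fold. The first base library of ram 13 also lacked MRGPRG reads, so single libraries overlapped.

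OMG, a myelin glycoprotein, had 6.03, 6.34 and 10.7 CPM at the mid-tail, against 15.3, 21.8 and 36.9 CPM at the base. CD300LG, a glycoprotein of capillary endothelium, had 1.95, 1.21 and 1.98 CPM at the mid-tail, against 5.29, 4.21 and 6.61 CPM at the base. GFPT2, an enzyme of the hexosamine pathway, had 7.21, 11.6 and 11.2 CPM at the mid-tail, against 38.3, 41.5 and 24.7 CPM at the base. The sums of these 3 genes did not overlap between positions. AOC1, a diamine oxidase that breaks down histamine, had 1.42, 8.93 and 3.47 CPM at the mid-tail, against 24.6, 36.8 and 7.11 CPM at the base, where the highest mid-tail sum exceeded the lowest base sum. PROC, the anticoagulant protein C, had 8.68, 4.38 and 3.28 CPM at the mid-tail, against 23.4, 10.1 and 16.5 CPM at the base.

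IL17RB and IL3RA, receptors of the cytokines interleukin 25 and interleukin 3, were also lower in each ram. IL17RB had 0.285, 0.461 and 0.152 CPM at the mid-tail, against 1.39, 2.41 and 1.40 CPM at the base, and IL3RA had 0.854, 0.173 and 0.882 CPM at the mid-tail, against 2.09, 1.76 and 2.62 CPM at the base. NNMT, nicotinamide N-methyltransferase, had 0.901, 0.461 and 0.669 CPM at the mid-tail, against 3.20, 0.897 and 3.52 CPM at the base, with ram 12 low at both positions.

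**Figure D4:**
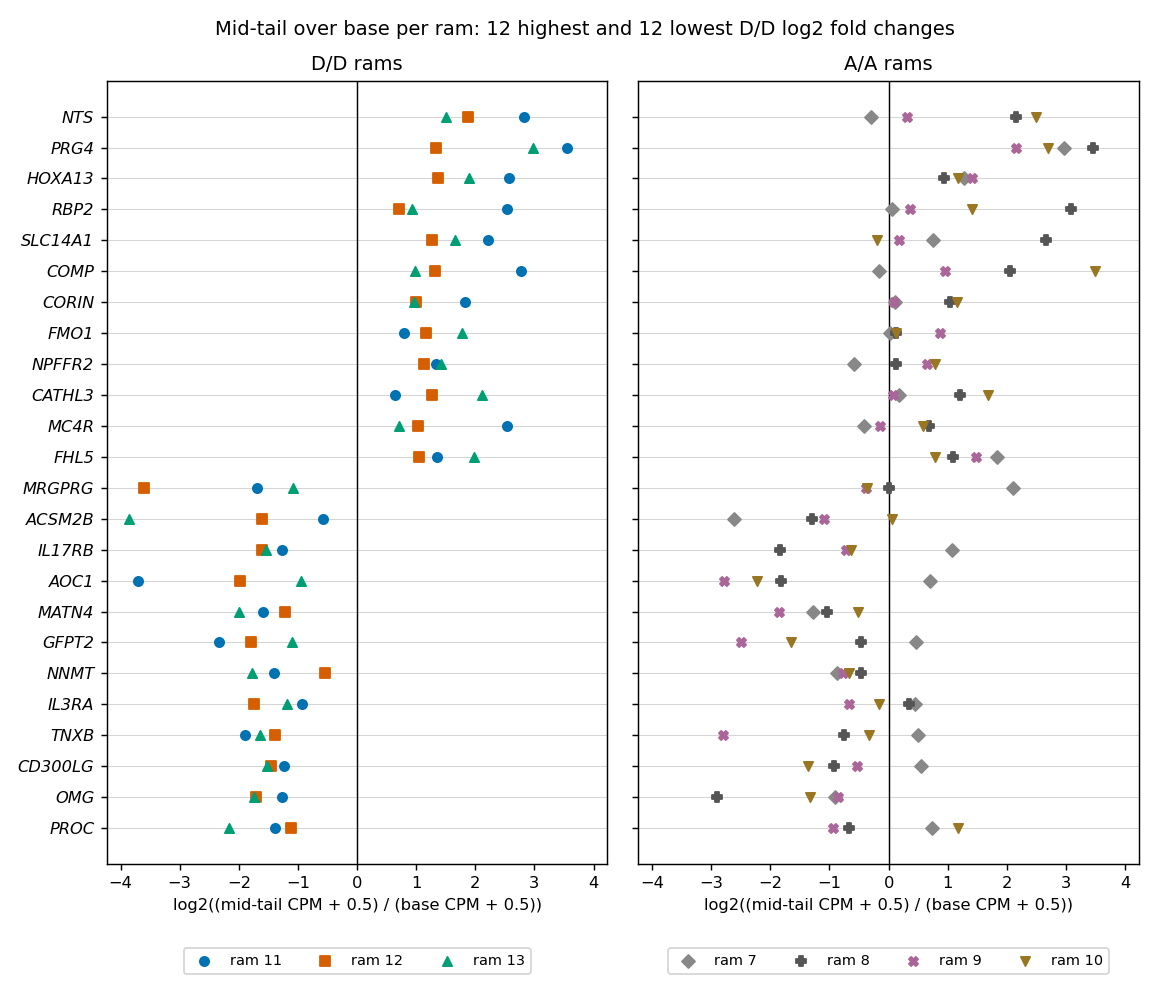
log2 ratio of mid-tail over base CPM, each plus 0.5 (horizontal axes), of the 12 genes with the highest and the 12 with the lowest D/D log2 fold change, with 1 symbol per ram, for D/D rams (left) and A/A rams (right). By choice all D/D points of a gene lie on 1 side of 0, and in A/A rams all 4 points share the D/D side for 7 of the upper 12 and 3 of the lower 12 genes.

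A/A rams, whose log2 fold changes were not used to choose these genes, gave a comparison with other animals. The p-value used in the choice shares its estimate of the spread with the A/A p-values. This favours small p-values in A/A rams too, so the counts at an unadjusted p under 0.05 are a description. Of the 12 highest in D/D, 12 had positive log2 fold changes in A/A, 7 of them at an unadjusted p under 0.05 and 7 in 4 of 4 rams, with a median of 1.89 in D/D and 1.32 in A/A. Of the 12 lowest, 10 were negative in A/A, 8 at an unadjusted p under 0.05 and 3 in 4 of 4 rams, with a median of -1.84 in D/D and -0.92 in A/A. Over all genes in A/A, 4.75% were higher and 5.71% lower at an unadjusted p under 0.05, and 5.99% were higher and 7.24% lower in 4 of 4 rams. The D/D medians are expected to be the larger ones since the genes were chosen on D/D values.

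The differences between the genotypes were tested in the same edgeR fit as an interaction. It called 0 genes, the smallest adjusted p was 0.106, and 1006 of 19029 genes (5.29%) had an unadjusted p under 0.05, against 951 for evenly spread p-values. DESeq2 placed 6 genes and limma-voom 0 at an adjusted p under 0.05. PRG4 (2.54 in D/D and 2.91 in A/A), HOXC10 (1.16 and 1.23), TBX3 (0.94 and 1.17) and OMG (-1.64 and -1.63) had similar log2 fold changes in the genotypes. Of the genes chosen on D/D values, 1 of the 12 highest and 4 of the 12 lowest had an unadjusted p under 0.05 for the difference. IL3RA (-1.79 and -0.017) and IL17RB (-2.59 and -0.72) were among these, and the choice on D/D values favours such differences. HOXB13 had log2 fold changes of 2.75 in D/D and 5.99 in A/A, a difference of -3.23 with an unadjusted p of 0.29 and few D/D reads. Of the 34 HOX genes 17 were positive in D/D and 28 in A/A, and 28 had a lower log2 fold change in D/D than in A/A. The difference reached an unadjusted p under 0.05 in 5 of the 34, of which HOXA3, HOXC5 and HOXC6 were lower and HOXC13 was higher in D/D.

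The 5 smallest p-values in each direction of this test were taken among named genes with a mean of at least 1 CPM. GSR, glutathione reductase, S1PR3, a sphingosine phosphate receptor, PCTP, a phosphatidylcholine carrier, INSYN2A, an inhibitory synapse protein, and LRAT, which makes retinyl esters, had the more positive log2 fold change in D/D. LRAT had 159, 102 and 148 CPM at the mid-tail, against 92.3, 60.8 and 66.7 CPM at the base of D/D rams, and its log2 fold change was 0.89 in D/D and 0.09 in A/A, a difference of 0.80 (unadjusted p = 0.0034). PCTP had 57.7, 46.2 and 49.5 CPM at the mid-tail, against 38.3, 31.3 and 30.9 CPM at the base of D/D rams. Both of these genes were without overlap between single D/D libraries, and their DESeq2 adjusted p for mid-tail over base was 0.0059 and 0.00734.

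MMP7, matrilysin, LOXL3, SH2B2, an adaptor of tyrosine kinase receptors, LTBP2, a matrix protein of elastic fibres, and USP43, a deubiquitinase, had the more negative log2 fold change in D/D. MMP7 had 6.22, 3.34 and 2.43 CPM at the mid-tail, against 8.49, 5.91 and 3.82 CPM at the base of D/D rams, a log2 fold change of -0.65, while it was 1.59 in A/A. The difference of -2.24 had an unadjusted p of 5.6e-05 and an adjusted p of 0.355 in edgeR. LOXL3 had a log2 fold change of -0.93 in D/D and 0.49 in A/A. SH2B2 had 1.19, 1.04 and 1.73 CPM at the mid-tail, against 2.58, 2.72 and 4.35 CPM at the base of D/D rams.

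The number of positive genes in a list also differed between the genotypes. Fatty acid synthesis genes had 16 of 22 positive in D/D (median 0.26) and 8 of 22 in A/A (median -0.12), wool follicle genes 12 of 17 in D/D (median 0.16) and 0 of 17 in A/A (median -0.88), and smooth muscle genes 5 of 14 in D/D (median -0.14) and 13 of 14 in A/A (median 0.55). Limb transcription factors had 15 of 36 positive in D/D and 28 of 36 in A/A. These counts are descriptions of 4 of the 38 lists. The D/D median of the wool follicle genes was above 0 in ram 11 only (0.50, -0.09 and -0.10), and without ram 11 it was -0.07. An unadjusted p under 0.05 for the genotype difference was found in 1, 1, 4 and 9 members of these lists, against 5.29% of all genes.

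**Figure D5:**
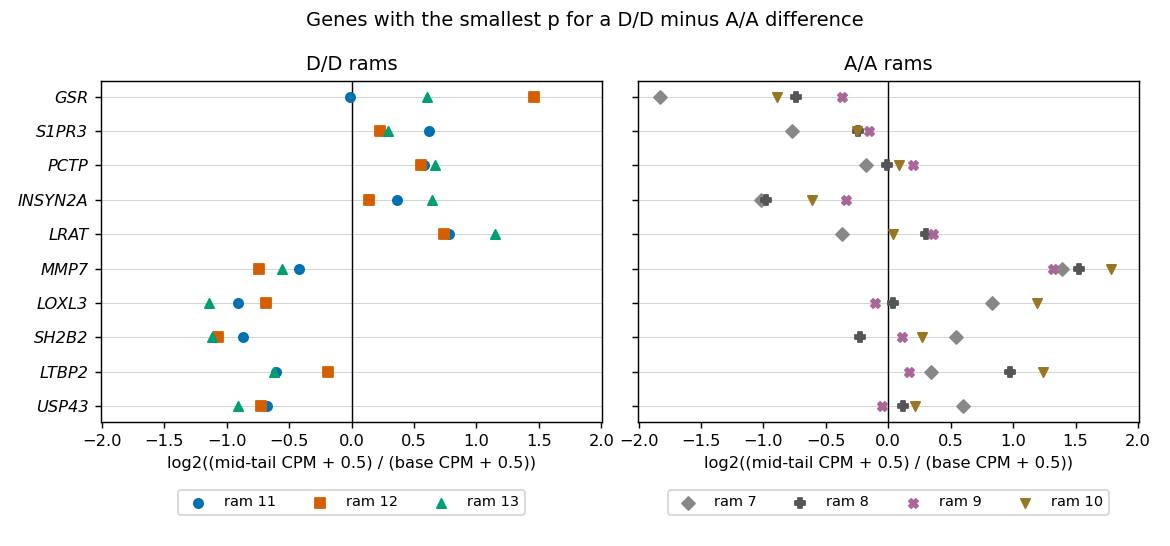
log2 ratio of mid-tail over base CPM, each plus 0.5 (horizontal axes), of the 5 genes with the smallest p in each direction of the D/D minus A/A difference, with 1 symbol per ram, for D/D rams (left) and A/A rams (right). MMP7 lies below 0 in all 3 D/D rams and above 0 in all 4 A/A rams.

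The tip was set against the mid-tail. This comparison shares the mid-tail sums with mid-tail over base, as tip over base would share the base sums. edgeR called 0 genes for tip over mid-tail in D/D rams, and the smallest adjusted p was 0.207. An unadjusted p under 0.05 was found in 721 of 19029 genes (3.79%), fewer than the 951 for evenly spread p-values. Of these, 143 were higher and 578 lower at the tip. DESeq2 placed 12 genes and limma-voom 0 at an adjusted p under 0.05. Of the 12 highest genes at the mid-tail, 7 were higher still at the tip and 0 differed at an unadjusted p under 0.05. Of the 12 lowest, 9 were lower still and 6 differed at an unadjusted p under 0.05, with 5 of these lower at the tip (MATN4, TNXB, CD300LG, OMG and AOC1) and IL3RA higher. Since the genes were chosen on the same mid-tail sums, these counts are a description.

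MATN4 had 6.03, 4.58 and 5.38 CPM at the base, 1.66, 1.67 and 0.973 at the mid-tail and 0.809, 0.654 and 0.477 at the tip of rams 11, 12 and 13, and so decreased with every step in each ram. TNXB had 230, 143 and 143 CPM at the base, 61.4, 54.0 and 45.2 at the mid-tail and 24.1, 28.5 and 30.5 at the tip. Both genes kept their order in 3 of 3 rams. KRT19, by contrast, had 87.7, 170 and 154 CPM at the tip, above the mid-tail in rams 12 and 13.

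CCL26, IGF2BP2 and HOXA10, chosen for a small p of tip over mid-tail, had log2 fold changes larger in size there than from base to mid-tail. Their adjusted p for tip over mid-tail in edgeR was 0.207, 0.323 and 0.873. Other genes chosen by the same rule turned back at the tip. LAGE3, IL17REL and ABCC11 had log2 fold changes of -0.49, -0.99 and -0.50 from base to mid-tail. From mid-tail to tip these were 0.77, 1.23 and 0.98. ALDH1A3 had 0.29 and then -0.72. CCL26 had 0.468, 0.327 and 0.589 CPM at the tip, a log2 fold change of -3.30 from the mid-tail (unadjusted p = 3.3e-05). IGF2BP2, an RNA-binding protein of growth, had 26.5, 25.1 and 26.1 CPM at the base, 8.87, 21.7 and 14.6 at the mid-tail and 3.62, 5.23 and 3.59 at the tip. Both genes were lowest at the tip of each ram, but in ram 11 IGF2BP2 fell more from base to mid-tail than beyond it. HOXA10, a posterior HOX gene of the trunk and hindlimb, had 4.43, 6.50 and 8.87 CPM at the base, 8.54, 7.08 and 9.24 at the mid-tail and 13.03, 10.9 and 17.0 at the tip, with a log2 fold change of tip over mid-tail of 0.70 (unadjusted p = 0.0041), so HOXA10 stood higher at the tip of each ram and, unlike HOXA13, was little above the base at the mid-tail of rams 12 and 13.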

How the data were processed

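RNA was selected with oligo(dT) from skin of 7 rams and made into stranded libraries. The authors checked reads with FastQC 0.11.9, aligned them with ContextMap 2 and BWA to ARS-UI_Ramb_v3.0, and counted reads per RefSeq gene by strand with featureCounts. The deposited values are raw read counts, in whole numbers. No deposited column holds estimated counts with fractions, and the tail tip columns are whole numbers too. The handling of reads that map to several genes is not given in the sources used here.

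Counts of a ram and position were summed. The filter of edgeR 4.0.16 on low counts left 19029 of 31182 genes. The main fit (edgeR, TMM, quasi-likelihood, R 4.3.3) used all 21 ram sums with the ram as a block and position within genotype, as in the study's design, with Benjamini-Hochberg adjustment. Calls needed an adjusted p no larger than 0.01 and a log2 fold change beyond 1 in either direction. DESeq2 1.42.0 and limma-voom 3.58.1 were alternatives. All tests are two-sided. p-values rest on 1 estimate of the spread over the sums of all 7 rams, and depth allowed ratios of low genes only with exact intervals. Per-ram log2 ratios had 0.5 CPM added.

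Mid-tail and base come from the same animal, which gives the pairing. Deviations from the group means correlated at 0.471, 0.428 and 0.375 within rams 11, 12 and 13, against at most -0.106 with another ram. The deviations of the rams cancel out in each gene, so positive values within rams make those with other rams negative on balance. The contrast between them is therefore a description. As mid-tail and base share the animal, the main fit is paired by ram.

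Genes named are those in the lists of HOX genes and of the qPCR panel, the 12 highest and 12 lowest log2 fold changes (unadjusted p under 0.01, mean of 1 CPM or more, 1 direction in 3 of 3 rams), in each list up to 4 genes by smallest p, and the 5 smallest p in each direction of the genotype and tip comparisons, the last 2 without unnamed loci. Not all of these are described, and some results are not reported here. SIM2 was named because DESeq2 called it, after its values were seen. Members, lists and rules were chosen with earlier results of these data known. The scripts were tested on simulated data. Gene coordinates and names come from the deposited files and RefSeq. Columns of the authors' own comparisons were not used.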

Additional observations from a re-analysis of the deposited data

Results flagged for a closer look

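In 58 groups of 5 or 6 single libraries that were checked for a value far from the rest, 4 held one, and chance marks about 1 in 20 groups. PRG4 had 25.8 CPM in a base library of ram 12, where the next highest base library had 7.99. RBP2 had 1.11 CPM in a base library of ram 13, with the next at 0.407. HOXB13 had 0.0512 CPM in a base library of ram 12, which is 1 read, and 0 in the other base libraries. AGT had 2.66 CPM in a mid-tail library of ram 13, with the next at 0.823. PRG4 at the mid-tail was above that base library in every library.

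In 5 of the 113 named genes all 3 D/D rams differed between mid-tail and base in 1 direction and all 4 A/A rams in the other, which held for 273 of 19029 genes (1.43%). MMP7, LTBP2, S1PR3 and INSYN2A were named for their small p in the D/D minus A/A difference, which favours opposite directions, so their number is not to be read against that share. The D/D minus A/A difference of the log2 fold change was -2.24 for MMP7 (unadjusted p = 5.6e-05), -1.16 for LTBP2 (0.000523), 0.74 for S1PR3 (0.00244), 1.49 for INSYN2A (0.00287) and 0.52 for ALDH1A3 (0.0193). In edgeR the smallest adjusted p of this test over all genes was 0.106.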

How the results depend on the processing

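The number of calls differed between fits, which differ in the tool, the sums or libraries used and the estimate of the spread. Which of these set the number was not tested. For mid-tail over base in D/D rams, 0 genes were called with all 21 ram sums in edgeR, 8 with DESeq2, 63 with the 6 D/D base and mid-tail sums alone, 0 with the 9 D/D sums, 6 with single libraries in edgeR and 39 with single libraries in DESeq2. For the D/D minus A/A difference the calls were 3 with DESeq2, 3 with single libraries in edgeR and 8 with single libraries in DESeq2, and for tip over mid-tail 5, 2 and 5, with 1 for the 9 D/D sums alone. With no ram block there were 0 calls in each comparison, and with the library number as a block beside the ram there were 6, 1 and 3. Leaving out each ram gave 0 to 0 calls in each comparison. limma-voom, other scalings and other filters gave 0. Chosen after seeing the data, the second base library of ram 13 alone gave 0 in the main test, 21 with DESeq2 and 57 with the 6 D/D sums for mid-tail over base, and 3 with DESeq2 for the difference between the genotypes. All 24 highest and lowest genes passed an adjusted p under 0.05 with the 6 D/D sums, against 2 of the 12 highest and 7 of the 12 lowest with the 9 D/D sums. Of 2219 values of 113 genes under the 20 alternatives, 2215 kept their direction. HOXC13 turned to -0.19 with the first library of each ram and position alone, and the other 3 that turned did so without ram 11. Leaving out each ram gave log2 fold changes of -0.0052 to 0.29 for HOXC13, -0.069 to 4.02 for SP8 and -7.36 to 0.34 for TYRP1, and the cause for HOXC13 was not tested. The 12 highest and 12 lowest genes kept their direction in 480 of 480 values and passed an adjusted p under 0.05 in 141. These 24 genes were chosen on the same sums for a small p and 1 direction in 3 of 3 rams. Their kept directions, and their passes with the 6 and the 9 D/D sums, are therefore a description. Single reads limit HOXB13, SP8 and MYH2.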

Other observations

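Other lists gave no further differences past the adjustment in edgeR. Of 15 genes of tail length and tail bud growth 6 were tested, and all 6 were positive with a median log2 fold change of 0.22 in D/D rams, against 3 of 6 with a median of 0.01 in A/A rams, while 0 of them reached an unadjusted p under 0.05 in D/D rams. Only 1 of the 6, HOXB13 with its few reads, was higher in 3 of 3 D/D rams. The per-ram medians were 0.24, -0.03 and 0.25 in rams 11, 12 and 13. Retinoic acid genes had 6 of 13 positive with a median of -0.04, adipocyte markers 5 of 15 with a median of -0.13, smooth muscle markers 5 of 14 with a median of -0.14, mast cell and granulocyte markers 6 of 11 with a median of 0.05 and heat shock genes 3 of 11 with a median of -0.09. Mast cell and granulocyte markers differed more between rams than between positions, with a summed level of 182, 48.5 and 60.5 CPM at the mid-tail of rams 11, 12 and 13, against 155, 47.8 and 48.0 CPM at the base. HBB, a globin of red blood cells, had 12, 2 and 19 reads at the mid-tail, against 7, 1 and 1 at the base, a ratio of 4.46 at equal depth with an exact 95% interval of 2.09 to 10.6 that covers counting error only.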
